A study of Mus musculus with 12 samples.

Results

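The genes described here are the nuclear genes for the subunits of the 5 oxidative phosphorylation complexes, measured by RNA sequencing in mouse heart. They were chosen by symbol: every gene whose symbol begins with Nduf, Uqcr, Atp5 or Cox4 to Cox8, together with Sdha, Sdhb, Sdhc, Sdhd and Cyc1. Of the 17397 genes in the count table, 95 met this name rule. The 93 members kept had a mean of at least 1 CPM over the 12 libraries, where CPM is the count divided by the library size after TMM scaling, in the usual depth-normalised unit. All 93 were among the 12778 genes that could be tested. Cox6b2, the lowest gene kept, averaged 1.48 CPM, and Ndufb4b and Cox7b2, the 2 left out, averaged 0.207 and 0.179 CPM.

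The study asked how a low-intensity training programme and a disseminated melanoma, each alone and both together, bear on the heart. All mice were male C57BL/6J of genotype WT and 8 weeks old, in 4 groups of 3 libraries. Tumour trained mice were injected through the tail vein with B16F10 cells, a mouse melanoma line, and ran on a treadmill on 5 days a week for 4 weeks. Tumour mice had the same B16F10 injection, 100000 cells from week 2, without running. Trained mice ran without the injection, and control mice, labelled Saline, did neither. Tumour cells injected into a vein seed organs from the blood, and the labels do not say whether any of them lay in the hearts. Whether each library came from its own mouse is not stated in the labels, and p-values therefore cover the spread among these libraries alone, which may be technical.

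Oxidative phosphorylation passes electrons from NADH through complex I (NADH dehydrogenase) and from succinate through complex II (succinate dehydrogenase) to ubiquinone. Complex III (cytochrome bc1) passes them on to cytochrome c, and complex IV (cytochrome c oxidase) hands them to oxygen. Complexes I, III and IV pump protons, and complex V (ATP synthase) uses the gradient to make ATP, most of which the heart spends on contraction. Most subunits are nuclear genes expressed in every tissue, but a few of complex IV have a second gene that striated muscle prefers. The members comprised 37 structural subunits of complex I and 8 of its assembly factors (Ndufaf genes), all 4 subunits of complex II, 9 of complex III, 17 of complex IV and 16 of complex V. Cox7a2l, a factor that joins complexes III and IV into supercomplexes, and Atp5s, a protein associated with complex V, were counted as members but not as structural subunits. Ndufb4c is a near-identical copy of Ndufb4, so reads may have been split between them.

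Total counts ran from 8843909 to 13344847 per library. Tumour 1 and tumour 2 stood apart from the other 10 libraries: a list of 20 cardiomyocyte genes took 3.81% of the counts in tumour 1 and 9.42% in tumour 2, against 14.7% in tumour 3 and 14.5% to 15.7% in the other groups. A list of 7 melanocyte genes was high in those same libraries, with 1.51% of the counts in tumour 1 and 0.688% in tumour 2, against 0.00803% in tumour 3; it summed to 78.7 to 83.1 CPM in tumour trained, 84.8 to 12093 CPM in tumour, 49.6 to 80.6 CPM in trained and 59.9 to 70.7 CPM in control libraries. A list of 5 proliferation genes summed to 2.64 to 6.42 CPM in tumour trained, 5.35 to 709.8 CPM in tumour, 5.38 to 9.07 CPM in trained and 3.31 to 5.65 CPM in control libraries. A list of 6 endothelial genes summed to 1011 to 1044 CPM in tumour trained, 308 to 1076 CPM in tumour, 1157 to 1185 CPM in trained and 1216 to 1221 CPM in control libraries. Trained and control libraries differed within their groups in ways that followed the GC content of the transcripts, most in trained 2. The tissue is labelled heart although the extraction protocol names livers: 3 liver genes (Alb, Apoa1 and Ttr) summed to at most 5.46 CPM in any library, whereas no cardiomyocyte gene of the list was at 0 in any group.

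In control hearts the members were abundant transcripts. Together they took 7.11%, 7.14% and 7.26% of the counts in control libraries. Per kilobase of transcript, the highest mean levels in control hearts were 5198 CPM per kb for Cox6a2, the heart and muscle form of a cytochrome c oxidase subunit, and 4271 CPM per kb for Atp5b, the catalytic beta subunit of ATP synthase. Uqcrc1, a core protein of complex III, followed with 3687 CPM per kb. At the other end, Cox6b2, known as the testis form of subunit 6b, reached 2.51 CPM per kb, and Cox4i2, a form of subunit 4 best known from lung, reached 16.6 CPM per kb. The median member of complex I, with assembly factors, had 457 CPM per kb, against 910 in complex II, 1199 in complex III, 1858 in complex IV and 1202 in complex V.

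The first comparison sets untrained mice with the B16F10 injection against control mice. The members took 2.93%, 4.77% and 7.24% of the counts in tumour 1, 2 and 3, against the 7.11% to 7.26% of control libraries. The 95% Wilson interval, which covers counting error only, was 2.92% to 2.94% in tumour 1 and 7.22% to 7.25% in tumour 3. Tumour 1 and tumour 2 were therefore far below every control, and tumour 3 lay among the controls. Member by member, the median log2 ratio to the control mean was -1.64 in tumour 1, -0.81 in tumour 2 and -0.00362 in tumour 3. In tumour 1, 89 of 93 members were below every control library, in tumour 2 there were 91, and in tumour 3 there were 15; of all genes tested, 42.0%, 33.6% and 29.0% were below every control in those libraries. Above every control were 1 member in tumour 1, 1 in tumour 2 and 19 in tumour 3, where the shares of all genes were 48.2%, 45.4% and 31.9%.

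**Figure D1:**
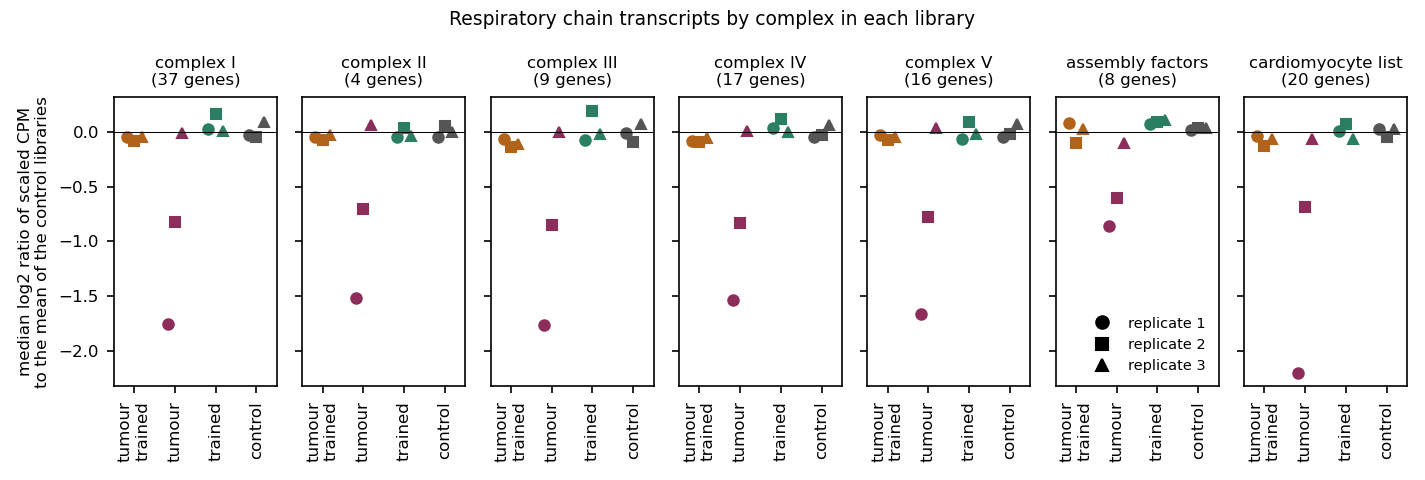
Median log2 ratio of the members of each complex (structural subunits), of the complex I assembly factors and of 20 cardiomyocyte genes to the mean of the control libraries, on the vertical axis, for every library of the 4 groups. Tumour 1 and tumour 2 are low in every panel under this scaling. Per count of the cardiomyocyte list the members' medians there are 0.75 and 0.10. In the fit scaled to that list, the median change of tumour against control is 0.32 for members and 1.54 for all genes.

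All 5 complexes were low together in tumour 1 and tumour 2. In tumour 1 the median log2 ratio was -1.75 for complex I, -1.52 for complex II, -1.76 for complex III, -1.53 for complex IV and -1.66 for complex V. In tumour 2 the medians lay between -0.85 for complex III and -0.70 for complex II. The 8 complex I assembly factors were less low, at -0.86 in tumour 1 and -0.60 in tumour 2. The cardiomyocyte list stood at -2.20 in tumour 1, -0.69 in tumour 2 and -0.06 in tumour 3. In RNA from a whole heart, fewer cardiomyocytes and less of a transcript per cardiomyocyte cannot be told apart. Expressed per count of the cardiomyocyte list, the median member stood at 0.75 in tumour 1, 0.10 in tumour 2 and 0.04 in tumour 3 on the log2 scale relative to control. In the fit scaled to that list, the median change of tumour against control was 0.32 for the members and 1.54 for all genes. The part that the cardiomyocyte, melanocyte, proliferation and endothelial transcripts play in the low member values was not tested.

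**Figure D2:**
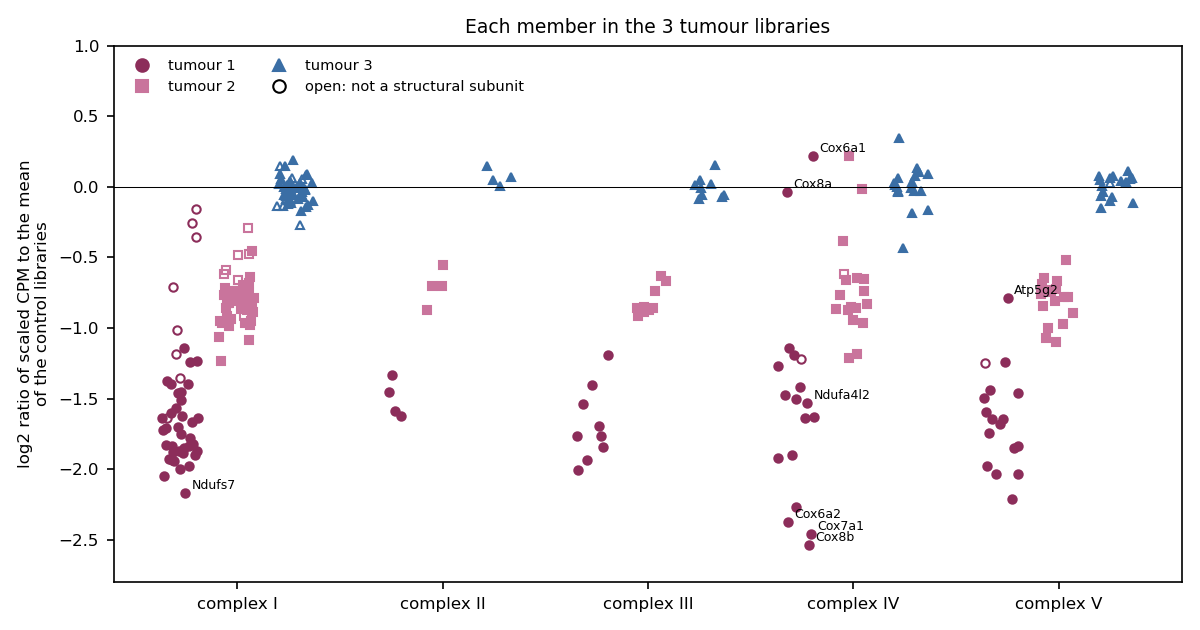
Log2 ratio of each member to the mean of the control libraries in tumour 1, 2 and 3, by complex; open symbols are members that are not structural subunits. Tumour 1 members spread from -2.53 to 0.22, and tumour 3 members lie around 0.

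No member passed the test of tumour against control over the 3 libraries. The median log2 change of the members was -0.66, against 0.11 for all genes tested, and 92 of 93 were below 0, but scaling to the cardiomyocyte list turned the median to 0.32, where that of all genes was 1.54. Scaling by library size alone gave -0.53, with 0.32 for all genes. None was called at an adjusted p below 0.05 by edgeR's quasi-likelihood test with Benjamini-Hochberg adjustment over all genes. Of all genes, 1.46% were called lower and 5.33% higher. An unadjusted p below 0.05 was reached by 30 of 93 members and by 4395 of 12778 genes, a similar share. DESeq2 called 1 member lower, Ndufa4l2, and 5.12% of all genes lower. Libraries of the groups did not overlap for 14 members, all lower in tumour hearts, where 11.8% of all genes were lower and 14.2% higher without overlap. In a fit without tumour 3, 88 of 93 members were called lower, with a median of -1.20, where 22.8% of all genes were called lower and 30.2% higher. The 5 not called in that fit were Cox6a1, Cox8a, Cox6b2, Ndufaf4 and Ndufaf7. In a fit without tumour 1 and tumour 2, the median was 0.01 and none was called, with 0.870% of all genes called higher and 0.531% lower. The low median of the group thus rests on tumour 1 and tumour 2.

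In complex I, the lowest members were Ndufs7, an iron-sulphur subunit near the ubiquinone site, and Ndufa11. Ndufs7 (gene ID 75406) had 128, 245 and 531 CPM in tumour 1, 2 and 3, against 563, 518 and 659 CPM in control libraries. Tumour 3 lay within the control range and the other libraries below it. Its log2 change was -0.94 ± 0.39 (SE; adjusted p = 0.115, edgeR). The structural subunit nearest to 0 was Ndufs1, which carries several of the iron-sulphur clusters, at -0.38 ± 0.34 (adjusted p = 0.414, edgeR), and Ndufa9 followed at -0.49. The remaining structural subunits of complex I lay between Ndufa11 (-0.87) and Ndufa9.

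The 4 genes of complex II had similar values. Sdha, the flavoprotein that oxidises succinate, had 591, 1210 and 1962 CPM in tumour libraries, against 1908, 1925 and 1514 CPM in control libraries, a log2 change of -0.51 ± 0.36. Sdhb, the iron-sulphur subunit, had 418, 624 and 1143 CPM in tumour libraries, against 1096, 1079 and 1258 CPM in control libraries, a log2 change of -0.65. The membrane anchors Sdhc and Sdhd had log2 changes of -0.59 and -0.56, and the adjusted p of the 4 genes ran from 0.158 to 0.307 (edgeR). None of the 4 separated the groups, since tumour 3 was always among or above the controls.

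In complex III, Uqcr11, a small accessory subunit, was lowest at -0.80 and the core protein Uqcrc1 next at -0.77, while Uqcrb, which binds near the quinone site, was highest at -0.52 and the core protein Uqcrc2 stood at -0.53. In complex V, Atp5g1, 1 of 3 genes for the identical c subunit of the membrane rotor, had 446, 959 and 1917 CPM in tumour libraries, against 1981, 1959 and 2246 CPM in control libraries. Its log2 change was -0.90 ± 0.40 (adjusted p = 0.142, edgeR). Atp5g2, another of the c subunit genes, had 239, 288 and 403 CPM in tumour libraries, against 399, 405 and 437 CPM in control libraries, and its log2 change of -0.42 ± 0.20 was the nearest to 0 in complex V. Atp5k, subunit e of the membrane part, had a log2 change of -0.87 and Atp5b of -0.52. In tumour 1, Atp5g2 was the highest of its complex relative to control, at -0.79.

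In tumour 1, complex IV held both the lowest member relative to control, Cox8b, and the highest, Cox6a1. These belong to different pairs of isoforms. Cox6a2, Cox7a1 and Cox8b are the forms that heart and skeletal muscle use, and Cox6a1, Cox7a2 and Cox8a are their broadly expressed counterparts. Cox8b (gene ID 12869) had 134, 342 and 758 CPM in tumour libraries, against 738, 712 and 891 CPM in control libraries. Cox8a (gene ID 12868) had 187, 190 and 191 CPM in tumour libraries, against 190, 186 and 201 CPM in control libraries. The heart form was thus low in tumour 1 and tumour 2, while the other form lay within the control range in all 3 tumour libraries. Cox6a2 (gene ID 12862) had 683, 1838 and 3719 CPM in tumour libraries, against 3595, 3497 and 3513 CPM in control libraries. Cox6a1 (gene ID 12861) had 106, 106 and 79.8 CPM in tumour libraries, against 86.2, 86.4 and 100.8 CPM in control libraries. Cox6a1 was the single member above every control library in tumour 1 and again in tumour 2. Cox7a1 (gene ID 12865) had 200.2, 475 and 1076 CPM in tumour libraries, against 1009, 1107 and 1194 CPM in control libraries, and Cox7a2 (gene ID 12866) had 152, 234 and 382 CPM in tumour libraries, against 347, 376 and 377 CPM in control libraries. Both forms of this pair were thus low in tumour 1 and tumour 2. The log2 change of Cox6a1 over the group was 0.09 ± 0.16, and that of Cox8a was -0.02 ± 0.13 (adjusted p = 0.683 and 0.909, edgeR), while those of Cox8b and Cox7a1 were both -0.92 ± 0.44 (adjusted p = 0.160 and 0.156, edgeR).

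**Figure D3:**
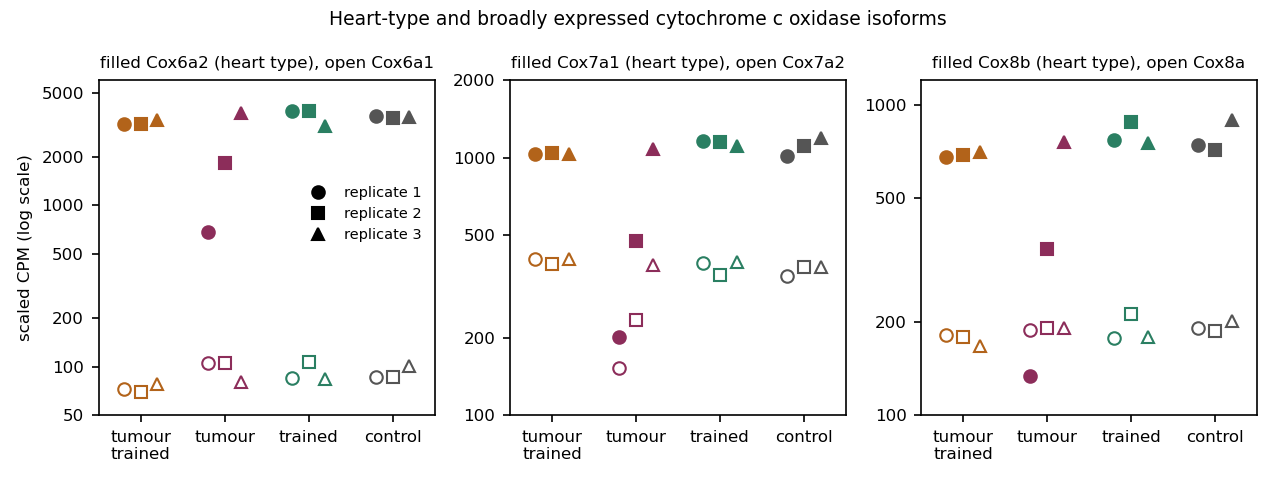
Scaled CPM on a log axis of the heart-type isoforms Cox6a2, Cox7a1 and Cox8b (filled) and of Cox6a1, Cox7a2 and Cox8a (open) in each library of the 4 groups. In tumour 1 and tumour 2 the filled symbols lie nearer to the open ones, and Cox8b at 134 CPM is below Cox8a at 187 CPM in tumour 1.

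The ratio of counts within a pair does not depend on how libraries are scaled. It can depend on which cells gave the RNA, and it was not corrected for the GC content of the transcripts. The melanocyte list took 1.51% and 0.688% of the counts in tumour 1 and tumour 2, against 0.00803% in tumour 3. A change of isoform within cells and a change in the mix of cells cannot be told apart here. Cox6a2 had 6.48, 17.4 and 46.6 counts per count of Cox6a1 in tumour 1, 2 and 3, against 41.7, 40.5 and 34.8 in control libraries. Cox8b had 0.715, 1.80 and 3.97 counts per count of Cox8a in tumour libraries, against 3.89, 3.82 and 4.44 in control libraries. Cox7a1 had 1.32, 2.03 and 2.82 counts per count of Cox7a2 in tumour libraries, against 2.91, 2.94 and 3.17 in control libraries, so that all 3 tumour libraries were lower for this pair. The log2 ratio differed between tumour and control libraries by -1.16 for the Cox6a pair, -1.23 for the Cox8 pair and -0.61 for the Cox7a pair. Exact two-sided permutation tests over the 3 libraries of each group gave p = 0.4, 0.3 and 0.1, where 0.1 is the smallest p that 3 against 3 can give. Adjusted over the 15 tests of these ratios, they were 0.5, 0.5 and 0.375. In tumour trained hearts, Cox8b had 3.72, 3.87 and 4.24 counts per count of Cox8a, within or just below the control range. Cox6a2 had 44.4, 45.8 and 43.5 counts per count of Cox6a1 in tumour trained libraries, above all 3 control libraries, with a log2 difference of 0.19 (exact permutation p = 0.1, adjusted p = 0.375). Cox7a1 had 2.56, 2.71 and 2.56 counts per count of Cox7a2 in tumour trained libraries, below all 3 control libraries and all 3 trained libraries (2.97, 3.31 and 2.82). Both of those differences, -0.20 and -0.21, had an exact permutation p of 0.1 and an adjusted p of 0.375. GC content was 52.8% for Cox6a2 and 58.8% for Cox6a1, 55.0% for Cox7a1 and 51.9% for Cox7a2, and 55.8% for Cox8b and 58.5% for Cox8a. Its part in these ratios was not tested.

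The promoters of these paired genes are shown because the ratio within each pair was low in tumour 1 and tumour 2. Each run gives the 250 bases before the annotated start, read along the gene, from RefSeq on build GRCm38.p6; Cox6a2 had no entry in that table. Capitals mark CpG dinucleotides.
Cox7a1, chr7:30183921-30184170, plus strand: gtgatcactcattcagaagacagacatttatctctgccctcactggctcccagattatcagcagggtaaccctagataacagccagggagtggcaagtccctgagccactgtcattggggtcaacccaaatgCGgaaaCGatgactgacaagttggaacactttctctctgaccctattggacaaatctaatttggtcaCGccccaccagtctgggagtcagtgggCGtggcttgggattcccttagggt
Cox8b, chr7:140900447-140900696, minus strand: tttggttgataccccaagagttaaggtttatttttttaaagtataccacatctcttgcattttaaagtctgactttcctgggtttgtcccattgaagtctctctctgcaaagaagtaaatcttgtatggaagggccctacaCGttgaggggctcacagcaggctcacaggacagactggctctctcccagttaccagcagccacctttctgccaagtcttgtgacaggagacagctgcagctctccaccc
Cox7a2, chr9:79759854-79760103, minus strand: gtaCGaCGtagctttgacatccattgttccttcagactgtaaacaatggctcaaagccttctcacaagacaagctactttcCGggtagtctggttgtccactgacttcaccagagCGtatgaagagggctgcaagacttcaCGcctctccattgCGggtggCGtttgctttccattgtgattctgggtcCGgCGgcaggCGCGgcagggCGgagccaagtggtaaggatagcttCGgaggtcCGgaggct
Cox8a, chr19:7217617-7217866, minus strand: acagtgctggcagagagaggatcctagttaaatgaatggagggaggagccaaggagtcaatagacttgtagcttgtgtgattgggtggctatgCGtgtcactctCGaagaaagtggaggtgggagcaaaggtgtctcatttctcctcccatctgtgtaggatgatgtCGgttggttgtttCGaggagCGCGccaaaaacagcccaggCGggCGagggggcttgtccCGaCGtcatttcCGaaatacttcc
Cox6a1, chr5:115348959-115349208, minus strand: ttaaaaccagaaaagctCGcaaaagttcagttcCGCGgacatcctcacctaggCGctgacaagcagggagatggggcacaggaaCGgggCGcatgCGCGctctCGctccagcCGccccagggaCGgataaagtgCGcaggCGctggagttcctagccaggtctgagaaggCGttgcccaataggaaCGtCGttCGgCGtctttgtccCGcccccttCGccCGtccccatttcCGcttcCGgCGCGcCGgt
The heart forms Cox7a1 and Cox8b had 4 and 1 CpG dinucleotides in this window, against 14 in Cox7a2, 11 in Cox8a and 26 in Cox6a1, where the median over all promoters of the table was 6 and that over the members was 15. Cox6a1 alone of the 5 held the NRF1 motif (GCATGCGC, either strand), as 2 overlapping matches that begin 162 and 160 bases before the start.

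Among all members, 75 had a promoter in the table, and motifs were searched on both strands from 250 bases before to 50 after the start. The NRF1 motif stood in 12 of the 75 (16.0%), against 3.05% of the 27025 genes in the table and 5.83% of the tested genes that are in it. The members with it included the c subunit gene Atp5g2, the complex I subunits Ndufa6, Ndufa8 and Ndufa11, Sdhb and Uqcrc1. The YY1 motif (AAGATGGCG) stood in 8 members (10.7%), against 1.64% of all genes and 3.47% of tested genes. The ETS motif bound by GABP (CCGGAAGT) stood in 5 members (6.67%), against 4.31% of all and 8.85% of tested genes, and Cox8a was 1 of them. The ERR motif (TCAAGGTCA) stood in Atp5g3 and Sdhd, 2.67% of the members, against 0.466% of all and 0.334% of tested genes. The letters TATAAA on the gene strand stood in 3 members (4.00%), Cox8b, Ndufa3 and Ndufs7, against 9.77% of all and 5.48% of tested genes. The matches in Cox8a (ETS) and Cox8b (TATAAA) lie outside the 250 bases printed above, in the bases after the start. A match describes these letters and is no evidence that a factor binds there.

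The second comparison sets trained against untrained mice that had the B16F10 injection. The melanocyte list summed to 78.7 to 83.1 CPM in tumour trained and 84.8 to 12093 CPM in tumour libraries, and its part was not tested. Tumour trained hearts had 7.14%, 6.996% and 7.05% of their counts in the members, against 2.93%, 4.77% and 7.24% in tumour hearts. Tumour trained libraries lay close together, with median log2 ratios to control of -0.04, -0.09 and -0.05. The median log2 change of the members was 0.61, against -0.04 for all genes tested, and 91 of 93 were above 0, but scaling to the cardiomyocyte list turned the median to -0.28, where that of all genes was -1.39. That scaling called 6 members higher between tumour and control hearts (70.5% of all genes) and 4 lower between tumour trained and tumour hearts (56.5%). Cox6a1, Cox8a, Atp5g2 and Atp5b were called in both. Cox6b2 was the 1 member called, higher, where 1.79% of all genes were called higher and 7.25% lower. Libraries did not overlap for 23 members that were higher in tumour trained hearts and for 2 that were lower, against 13.5% and 14.5% of all genes. Without tumour 3, 90 members were called higher and Cox6a1 lower, where 21.7% of all genes were called higher and 28.1% lower. Without tumour 1 and tumour 2, none was called (0.123% of all genes called higher and 0.593% lower) and the median was -0.07.

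By complex, the medians of tumour trained against tumour hearts were 0.63 for complex I, 0.55 for complex II, 0.61 for complex III, 0.62 for complex IV and 0.62 for complex V. Ndufa5, a subunit of the peripheral arm of complex I, had 387, 403 and 419 CPM in tumour trained libraries, against 127, 198 and 341 CPM in tumour libraries, and was above all 3. Its log2 change was 0.86 ± 0.31 (adjusted p = 0.088, edgeR). Uqcrb had 790, 792 and 803 CPM in tumour trained libraries, against 280, 414 and 647 CPM in tumour libraries, a log2 change of 0.83 ± 0.30 (adjusted p = 0.094, edgeR). Ndufaf4, an assembly factor of complex I, had 76.2, 75.1 and 79.2 CPM in tumour trained libraries, against 49.8, 36.2 and 50.6 CPM in tumour libraries. Its log2 change was 0.76. For these 3 genes the lowest tumour trained library stood above the highest tumour library, tumour 3 included. DESeq2 called all 3 higher, with Cox6b2, and 4.58% of all genes higher.

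Cox6a1 and Cox8a were the 2 members whose tumour trained libraries all lay below the tumour libraries. Cox6a1 had 72.0, 69.7 and 78.0 CPM in tumour trained libraries, against 106, 106 and 79.8 CPM in tumour libraries, a log2 change of -0.41 ± 0.16 (adjusted p = 0.109, edgeR). Cox8a had 181, 179 and 166 CPM in tumour trained libraries, against 187, 190 and 191 CPM in tumour libraries, a change of -0.11 ± 0.13. The heart forms Cox7a1, Cox8b and Cox6a2 had log2 changes of 0.83, 0.75 and 0.65. Complex II ran from 0.47 (Sdhc) to 0.59 (Sdha), and complex V from 0.27 (Atp5g2) to 0.83 (Atp5k).

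Ndufa4l2, a relative of the complex IV subunit Ndufa4 known to be induced by low oxygen, was below every control library in all 3 tumour libraries and all 3 tumour trained libraries. It had 22.9, 21.8 and 20.4 CPM in tumour trained, 9.81, 17.1 and 21.0 CPM in tumour, 30.8, 30.8 and 25.6 CPM in trained and 28.2, 27.2 and 29.9 CPM in control libraries. The log2 change of tumour against control hearts was -0.84 ± 0.23 (adjusted p = 0.0516, edgeR), which DESeq2 called (adjusted p = 0.0111), and without tumour 1 and tumour 2 the change was -0.42. Tumour trained hearts differed from control by -0.39 ± 0.23 (adjusted p = 0.792, edgeR). A list of 4 smooth muscle genes summed to 120 to 148 CPM in tumour trained, 69.0 to 189 CPM in tumour, 185 to 272 CPM in trained and 151 to 229 CPM in control libraries; its part in these values was not tested. Ndufa4 itself, with 1127, 1117 and 1168 CPM in tumour trained and 405, 682 and 1160 CPM in tumour libraries against 1084, 1097 and 1056 CPM in control libraries, followed the other members.

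Cox4i2 had 9.08, 8.95 and 9.68 CPM in tumour trained libraries and 2.51, 6.19 and 10.8 CPM in tumour libraries. Control libraries had 11.3, 11.7 and 13.4 CPM, so that both injected groups lay below every control. Trained libraries had 10.0, 14.3 and 8.62 CPM. Its log2 change in tumour against control hearts was -0.91 ± 0.40 (adjusted p = 0.135, edgeR). Its partner Cox4i1, the main form of subunit 4, had a log2 change of -0.72 in tumour against control hearts. The main form Cox6b1 stood at -0.64 there, Cox6b2 at -0.31, Cox7a2 at -0.52 and the supercomplex factor Cox7a2l at -0.53. Cox6b2 was the only member called between tumour trained and tumour hearts, with 1.69, 3.13 and 2.00 CPM in tumour trained libraries, against 0.479, 0.835 and 1.38 CPM in tumour libraries. The log2 change was 1.36 ± 0.39 with an adjusted p of 0.049994 (edgeR). These levels rest on 16, 29 and 19 counts in tumour trained libraries, against 8, 12 and 15 counts in tumour libraries. Trained libraries had 1.65, 1.56 and 1.81 CPM and control libraries 1.15, 1.07 and 1.05 CPM. The call was lost without any 1 of the other libraries except tumour 3.

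In mice without the melanoma injection, no member passed the test of training. The members took 7.15%, 7.61% and 7.26% of the counts in trained libraries, against 7.11%, 7.14% and 7.26% in control libraries. The median log2 change was 0.04, with 72 of 93 above 0, and none was called, nor was any of all genes (0%). No member had an unadjusted p below 0.05, against 278 of 12778 genes tested. Libraries of the groups did not overlap for 1 member, Cox6b2, where 4.04% of all genes were higher and 5.44% lower without overlap. The medians by complex were 0.06 for I, -0.03 for II, 0.02 for III, 0.04 for IV and 0.03 for V.

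Trained 2 parted the members in 2 directions. Against the mean of trained 1 and trained 3 it was different by -0.999 on the log2 scale for Ndufs1, -0.86 for Ndufaf4, -0.84 for Uqcrb, -0.72 for Cox7b, a small subunit of complex IV, -0.66 for Ndufa5 and -0.51 for Sdha. It differed by 0.60 for Cox4i2, 0.57 for Ndufaf8 and 0.53 for Atp5e, the epsilon subunit of ATP synthase. Uqcrb had 797, 458 and 841 CPM in trained 1, 2 and 3, against 602, 708 and 614 CPM in control libraries. Trained 1 and trained 3 were above every control and trained 2 below. The deviation of trained 2 followed the GC content of the transcript, with a Spearman correlation of 0.63 over the 92 members with a known GC content and 0.72 over 12630 genes. Trained 1 and trained 3 had -0.44 and -0.64 over the members. Control 1, 2 and 3 had -0.18, -0.52 and 0.55 over the members and 0.13, -0.39 and 0.19 over all genes. These correlations are across genes of the same libraries, which are not independent replicates.

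Tumour trained against control hearts, which share the control libraries with the comparisons above, gave a median log2 change of -0.07, with 65 of 93 members below 0, and of 0.01 with cardiomyocyte scaling. No member was called in the fit of 12 libraries (0% of all genes). Libraries did not overlap for 12 members that were higher in tumour trained hearts and 32 that were lower, where 21.9% and 17.4% of all genes did so. A fit of these 2 groups alone, whose spread does not include tumour 1, tumour 2 and trained 2, called 11 members, among them Cox7b, Ndufaf4, Cox6b2, Uqcrb and Cox6c higher and Ndufa4l2, Ndufa10, Cox6a1, Atp5g1 and Uqcrc1 lower. Of all genes, 12.8% were called higher and 7.58% lower in that fit. The changes were small: Cox7b had 936, 939 and 926 CPM in tumour trained libraries, against 749, 799 and 745 CPM in control libraries, a log2 change of 0.28 ± 0.05 (adjusted p = 0.00788, edgeR). Ndufaf4 had 76.2, 75.1 and 79.2 CPM in tumour trained libraries, against 49.1, 61.7 and 56.5 CPM in control libraries, a change of 0.45 ± 0.09. On the other side, Atp5g1 had 1826, 1734 and 1774 CPM in tumour trained libraries, against 1981, 1959 and 2246 CPM in control libraries, a change of -0.22 ± 0.06 (adjusted p = 0.0274, edgeR).

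**Figure D4:**
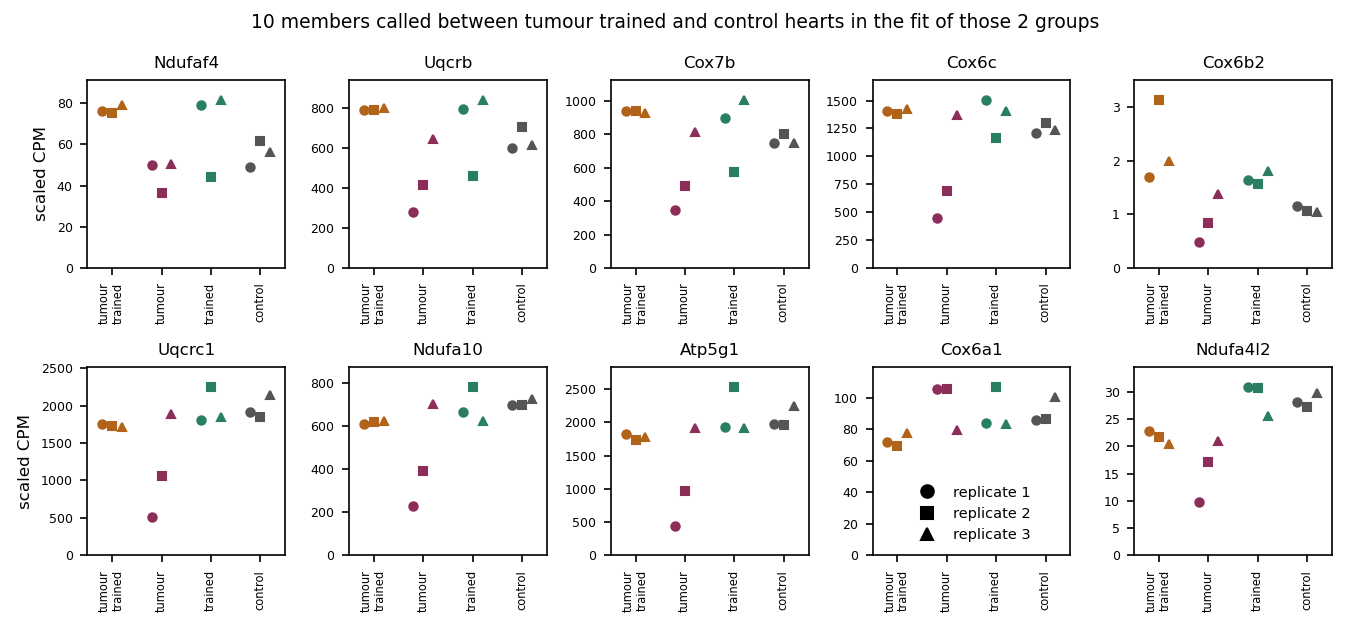
Scaled CPM, from 0, of 10 of the 11 members called between tumour trained and control hearts in the fit of those 2 groups, in each library of the 4 groups. The tumour trained libraries lie on 1 side of the control libraries, close together except for Cox6b2 (1.69 to 3.13 CPM), and trained 2 lies away from trained 1 and trained 3 for Ndufaf4, Uqcrb and Cox7b.

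These small differences also ran with GC content. Over the 92 members, the log2 change of tumour trained against control had a Spearman correlation of -0.65 with GC content, and over all 12630 genes it was -0.59. The higher members Cox7b, Uqcrb and Ndufaf4 have the lowest GC content of the members, at 42.0%, 42.2% and 42.3%, whereas Ndufa4l2 and Cox6a1 have 59.3% and 58.8%. With a correction for GC content in each library, which was chosen after seeing the data, the fit of the 2 groups called 3 members, Atp5j higher and Ndufa4 and Ndufv2 lower, none of them among the 11 called without it. Of all genes, 3.39% were then called higher and 3.28% lower.

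**Figure D5:**
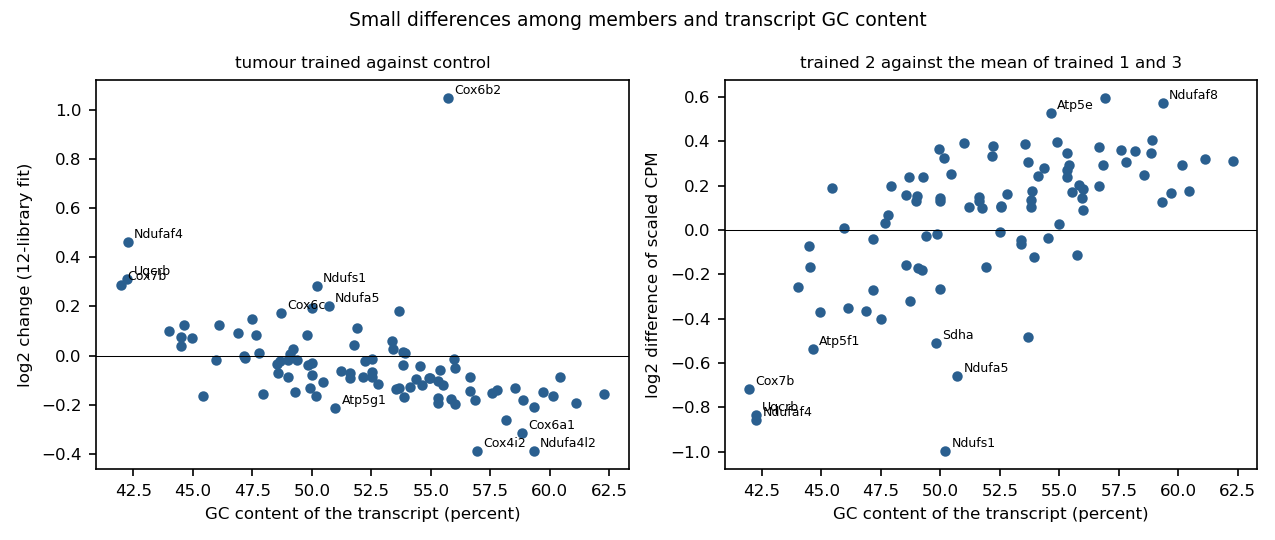
Log2 change of tumour trained against control hearts (left) and log2 difference of trained 2 from the mean of trained 1 and trained 3 (right), for the 92 members with a known GC content of their transcripts on the horizontal axis. Members of low GC content lie high on the left and low on the right; Spearman correlations are -0.65 and 0.63.

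Tumour trained against trained hearts had a median log2 change of -0.10, with 67 of 93 members below 0 and none called (0% of all genes). Libraries did not overlap for 29 members that were lower in tumour trained hearts, among them Cox7a1, Cox8b, Ndufa4l2 and Cox6a1, and for Sdha and Ndufs1, which were higher; 8.05% and 7.90% of all genes did so. The Spearman correlation with GC content over the members was -0.63. Without tumour 1, tumour 2 and trained 2, training against control called 5 members higher, Cox7b, Ndufa5, Ndufaf4, Uqcrb and Cox6c, where 8.52% of all genes were called higher. With the GC correction on those libraries, 2 were called, Ndufa5 at 0.32 ± 0.06 and Atp5j, the coupling factor 6 of ATP synthase, at 0.29 ± 0.07 (adjusted p = 0.0282 and 0.0447, edgeR), and 1.82% of all genes were called higher. Trained 2 lay below the mean of trained 1 and trained 3 for every member named in these fits, so leaving it out raised their trained means. Ndufa5 was called in both fits, but both used the same libraries, so the calls are not independent support. It had 430, 275 and 438 CPM in trained 1, 2 and 3, against 344, 370.5 and 335 CPM in control libraries.

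Whether training acted differently with and without the melanoma injection was tested as an interaction. The median interaction of the members was 0.59 on the log2 scale, against -0.08 for all genes, and 91 of 93 were above 0; with cardiomyocyte scaling it was -0.32, against -1.43 for all genes. None was called, where 0% of all genes were called higher and 0.0235% lower. None had an unadjusted p below 0.05, against 1846 of 12778 genes tested. The extremes were Cox7a1 at 0.78 ± 0.61 and Cox6a1 at -0.41 ± 0.22 (adjusted p = 0.504 and 0.392, edgeR). Without tumour 3, 80 members were called higher, where 12.4% of all genes were. Without tumour 1 and tumour 2, the median interaction turned to -0.11, with 74 of 93 members below 0 and none called, where 0.0462% of all genes were called higher and 0.200% lower.

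Another 57 tested genes cover assembly factors of complexes II to V, further complex I factors, ubiquinone synthesis, cytochrome c and the electron transfer flavoprotein. None of the 57 was called between tumour and control hearts (5.33% of all genes called higher, 1.46% lower). Their median log2 change was -0.46, and all 57 were below 0, but with cardiomyocyte scaling it was 0.69 and all 57 were above 0. Without tumour 1 and tumour 2 it was 0.02, with 26 below 0. Between tumour trained and tumour hearts the median was 0.47, or -0.61 with cardiomyocyte scaling and -0.03 without tumour 1 and tumour 2, and 1 of the 57 was called (1.79% of all genes called higher), Cox11, a copper chaperone of complex IV, at 0.54 ± 0.15 (adjusted p = 0.0482, edgeR). Of 15 regulators of mitochondrial genes, none was called between tumour and control hearts (5.33% of all genes called higher, 1.46% lower), with a median of -0.28. With cardiomyocyte scaling the median was 0.99, and 8 were called higher (70.5% of all genes) and 1 lower (57 of 12778 genes). Without tumour 3, 3 were called higher and 8 lower, where 30.2% and 22.8% of all genes were, and without tumour 1 and tumour 2 the median was -0.04. Perm1, a regulator found mainly in striated muscle, had the lowest value at -1.43 ± 0.40 (adjusted p = 0.0546, edgeR), and the nuclear receptor Esrra stood at -0.72. Between tumour trained and tumour hearts, the regulators' median was 0.47, or -0.58 with cardiomyocyte scaling. Of the 15, only Pprc1, a coactivator related to Ppargc1a, was called, lower at -1.27 ± 0.32 (adjusted p = 0.0371, edgeR). Of all genes, 7.25% were called lower there. Ppargc1a and Ppargc1b, the coactivators best known for driving these genes, had log2 changes of 0.72 and 0.89 with adjusted p of 0.0581 and 0.0554 (edgeR). In that comparison 11 of the 15 were above 0 and 4 below. With cardiomyocyte scaling 3 of the 15 were above 0, the highest at 0.36. Without tumour 1 and tumour 2 the median of the 15 was 0.16. The part of the regulators in the member values was not tested.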

How the data were processed

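Libraries were made from RNA with a VAHTS Universal V8 kit, per the labels' protocols. The authors deposited estimated counts per gene, not normalized, as 1 table; HISAT2 2.2.1, featureCounts and the builds GRCm39 and mm10 are named in the submitters' processing notes, and which build, annotation or strand setting gave the table is not given in the sources used here. Without strand, antisense and overlapping genes cannot be told apart. Estimated counts were rounded. Groups were read from the sample titles. The 12 libraries were fitted together with edgeR 4.0.16 in R 4.3.3 (quasi-likelihood test, TMM scaling, default filter by group, 8 residual degrees of freedom); a call means an adjusted p (Benjamini-Hochberg, 12778 genes) under 0.05, and the fit was tested on simulated data. The SE is the size of the change divided by the square root of F. Alternatives were DESeq2 1.42.0, other scalings and filters, a replicate block, fits restricted to 2 groups, leaving out libraries, and, chosen after seeing the data, a lowess correction on GC content. GC content and length are medians over GENCODE M21 protein-coding transcripts. Same-numbered libraries did not deviate together, so numbers were not taken as pairs. Every pair of replicates differed by more than sampling noise and none was merged.

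The members and gene lists were chosen with earlier results of these data known. Named were, in the comparisons of tumour with control and of tumour trained with tumour, the 2 highest and 2 lowest structural members of complexes I, III, IV and V, all of complex II, the isoform pairs (Cox4i, Cox6a, Cox6b, Cox7a, Cox8 and Ndufa4), Cox7a2l and every called member; in the others, the 3 highest, the 3 lowest and called members. Members shown for trained 2, the GC correction or lack of overlap were picked after their values were seen. The regulators and Cox11 fell outside this naming rule. A called member is not reported here.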

Additional observations from a re-analysis of the deposited data

Results flagged for a closer look

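Ndufa5 and Ndufaf4 were flagged because the melanoma injection went with opposite directions in untrained and trained mice. Every tumour library was below the control mean, and every tumour trained library was above the trained mean. Their interaction of tumour and training was 0.74 for Ndufa5 and 0.46 for Ndufaf4 on the log2 scale, and neither passed the test of the interaction (adjusted p = 0.413 and 0.459, edgeR). The trained mean of both includes the low trained 2: Ndufaf4 had 79.1, 44.1 and 81.5 CPM in trained 1, 2 and 3, and its tumour trained libraries at 76.2, 75.1 and 79.2 CPM were not above trained 3.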

How the results depend on the processing

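Members called between tumour and control hearts numbered 0 and became 1 with library size alone, without the low-count filter, with DESeq2 or with the GC correction, and 6 with cardiomyocyte scaling. Leaving out 1 library gave 0 to 88, the 88 without tumour 3, and a median log2 change of -1.20 to -0.36; cardiomyocyte scaling gave 0.32. Between tumour trained and tumour hearts the 1 call became 0 without the filter, with the replicate block, with only the groups compared, or without tumour 1 and 2 (also 0 with cardiomyocyte scaling on those libraries), 4 with cardiomyocyte scaling or DESeq2, and 2 with the GC correction. Leaving out 1 library gave 0 to 91, the 91 without tumour 3, and a median of 0.28 to 1.16; cardiomyocyte scaling gave -0.28, and leaving out tumour 1 and 2 gave -0.07. Without tumour 1, 2 and trained 2, members called between trained and control hearts became 5, and 2 with the GC correction. Between tumour trained and control hearts 0 became 11 with only the groups compared and 3 with the GC correction added. Of all genes, 12.8% were called higher and 7.58% lower in the former fit, and 3.39% and 3.28% in the latter. The count was 14 without tumour 1, 2 and trained 2, and 9 with the GC correction on those libraries. The fit of 2 groups gave 9, 15 and 7 without control 1, 2 and 3. Shares of all genes are not given for these fits that left out libraries. Nor are they given for library size alone, no filter, the replicate block, or the GC correction on all 12 libraries. The counts of members called in all of these fits therefore cannot be read as particular to the members. The median of tumour trained against control was 0.0113 with cardiomyocyte scaling, and 0.0113 with that scaling and without tumour 1 and 2. With TMM scaling and without tumour 1 and 2 it was -0.08. The median of tumour trained against trained was -0.0204, -0.0205 and -0.10 in those 3 fits. The median interaction was -0.32 with cardiomyocyte scaling, -0.11 without tumour 1 and 2, and 0.26 to 1.14 leaving out 1 library, with 0 to 80 called, the 80 without tumour 3. Cardiomyocyte scaling put Cox8a at 1.41 in tumour against control, where TMM scaling had it near 0 (-0.02 ± 0.13). The same scaling reversed Atp5g2 (0.83) and Atp5b (0.50) in tumour against control. In tumour trained against tumour it reversed Atp5g2 (-0.89) and Atp5b (-0.49). Ndufa4 reversed there to -0.28 without tumour 1, 2 and trained 2 with the GC correction. Leaving out 1 library, the log2 ratio differences of tumour against control ran from -1.87 to -0.45 for Cox6a, -0.88 to -0.33 for Cox7a and -1.83 to -0.59 for Cox8. The replicate block, on numbers that do not pair the libraries, gave 0 calls in tumour against control too. The cause of these differences was not tested.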
